A study of Homo sapiens with 4 samples.

Results

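A set of 10 genes that copy, package and read mitochondrial DNA (mtDNA), or regulate those that do, was followed in cisplatin-sensitive and cisplatin-resistant head and neck squamous cell carcinoma (HNSCC) cells. The members were chosen by name. They are TOP1MT, TFAM, POLRMT, TFB1M and TFB2M, whose products work inside mitochondria, and PPARGC1A, PPARGC1B, PPRC1, NRF1 and GABPA, whose products work in the nucleus. All 10 were on the arrays, with 12 probes, among 43305 gene names. The probes of 9 members were well above background on all 4 arrays, and the exception was PPARGC1A.

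There were 4 RNA samples, 1 array each. HN4 and HN30 are established HNSCC cell lines and served as the parental cells, grown in DMEM with 10% fetal bovine serum. HN4/DDP and HN30/DDP arose from these lines under cisplatin doses raised step by step, and were kept in 20 μM cisplatin, with an exposure of 48 h in the sample labels. Each resistant line was therefore both selected and under the drug, while its parental control had neither, and selection and acute exposure cannot be told apart.

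Mammalian mtDNA is a small circular genome that encodes core subunits of the respiratory chain. It is packaged and opened for transcription by TFAM, read by the single RNA polymerase POLRMT with the help of TFB2M, and relieved of supercoils by the topoisomerase TOP1MT. In the nucleus, the transcription factors NRF1 and GABPA bind promoters of many mitochondrial genes, and coactivators of the PGC-1 family (PPARGC1A, PPARGC1B and PPRC1) raise their output.

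Signals are given as log2 of the processed spot intensity minus the 75th percentile of the array, so that 0 is the 75th percentile. Because probes bind with different strength, a level is compared only with the same probe on another array. The difference of a resistant array from its parental array carries an SD computed from the error that the scanner software gives each spot. That SD covers reading error only. There was 1 sample per condition, so no difference within a line could be tested, and a gene is called higher or lower where its log2 difference exceeds 1 and it is well above background on the higher array. Fewer cells of a kind and less RNA per cell cannot be told apart in such bulk RNA.

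Of 12 squamous epithelial markers, 11 were well above background on every array and 12 on some array. Of these, 4 were called higher and 1 lower in HN4/DDP, and 2 higher and 2 lower in HN30/DDP. Of all genes, 5.77% were called higher and 5.36% lower in HN4/DDP, and 12.9% and 8.67% in HN30/DDP. KRT5, a basal keratin, differed by -4.05 and -1.93. KRT6A, a stress keratin, was higher by 3.32 in HN4/DDP and was not well above background in HN30/DDP, against 2.57 in HN30. The others called were all higher: KRT14 (2.33), KRT17 (3.29) and DSG3 (1.84) in HN4/DDP, and CDH1 (1.34) and ITGB4 (1.26) in HN30/DDP. Of 8 fibroblast markers 2 were well above background on any array, COL1A1 and PDGFRB. COL1A1, a collagen chain, was called higher in both resistant lines, by 1.73 and 2.43. Of 5 leukocyte markers measured, 3 were called higher in HN30/DDP and 1 in HN4/DDP, and for CD3E among the 3 the HN30 signal was not well above background, so that its difference has only a bound, which was under the threshold. CD14 gave 2.63 in HN4 against 3.19 in HN4/DDP, and 1.82 in HN30 against 5.30 in HN30/DDP. ITGAM was called higher in both lines, by 1.53 and 2.06, and no leukocyte marker was called lower. Of 4 endothelial markers 3 were well above background on some array. CDH5, the only one well above background on every array, was lower in both resistant lines without passing the threshold (-0.62 in HN4/DDP and -0.59 in HN30/DDP). VWF was called higher in both resistant lines, and its HN4 signal was not well above background. PECAM1 was called lower in HN4/DDP and, on its measured difference, higher in HN30/DDP. The latter was taken against a dim HN30 signal. With that signal set at the lowest signal well above background, PECAM1 was higher by 0.71 in HN30/DDP, which does not pass the threshold. The part of these transcripts in the values below was not tested.

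**Figure D1:**
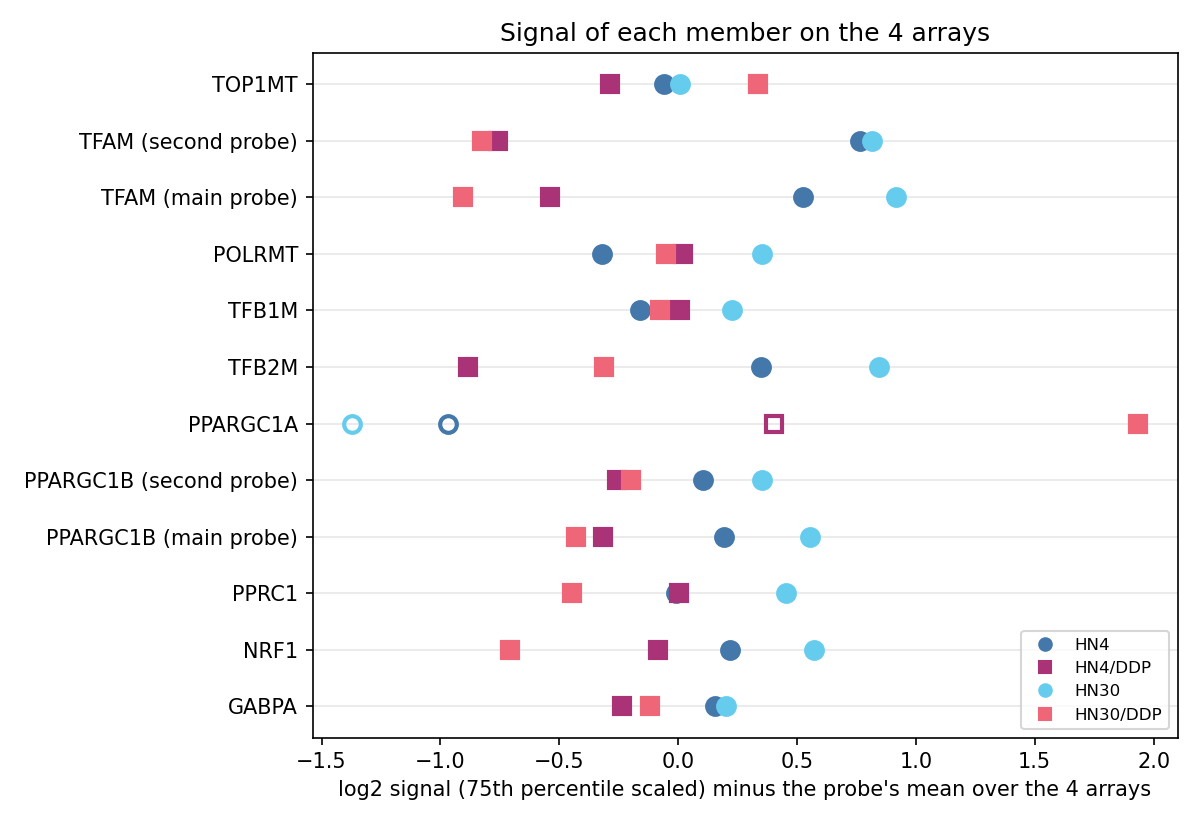
Signal of every probe of the 10 genes on the 4 arrays, drawn as the log2 signal minus that probe's own mean over the arrays, so that rows share no level. Circles are parental and squares resistant lines, and open symbols were not well above background. Both squares lie to the left of both circles for both TFAM probes, TFB2M, both PPARGC1B probes, NRF1 and GABPA.

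TOP1MT, the topoisomerase that the study placed downstream of the transcription factor CREB5, was well above background on all 4 arrays, with log2 signals within 0.62 of each other. Its log2 signal was 4.64 in HN4 against 4.41 in HN4/DDP, and 4.70 in HN30 against 5.03 in HN30/DDP. The resistant line was the lowest of the 4 in one pair and the highest in the other. The log2 difference was -0.23 ± 0.20 (scanner SD) in HN4/DDP and 0.33 ± 0.20 in HN30/DDP. Neither value passed the threshold. In HN30/DDP the value depended on scaling. It was -0.09 when arrays were scaled on their medians and 0.88 in the authors' own log2 table, and in HN4/DDP it stayed below 0 under all 11 alternatives. CREB5, a bZIP transcription factor, was called higher in both resistant lines. Its signal did not stand well above background in HN4 or HN30, and was at least 20.7-fold higher in HN4/DDP and at least 2.03-fold higher in HN30/DDP.

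TFAM was lower in both resistant lines, on both of its probes. This protein coats mtDNA and bends promoter DNA for transcription. The probe with the brighter signal gave 3.53 in HN4 against 2.47 in HN4/DDP, and 3.93 in HN30 against 2.10 in HN30/DDP. Both resistant values lay below both parental values. The log2 difference was -1.07 ± 0.20 in HN4/DDP, 2.10-fold lower, and -1.82 ± 0.20 in HN30/DDP, 3.53-fold lower. The second probe lies 7212 bases away in the genome and gave -1.52 ± 0.21 and -1.64 ± 0.22. In HN4/DDP the brighter probe sits close to the threshold. It no longer passed in the authors' table (-0.97), under quantile normalization (-0.97) and with the trend against brightness taken off (-0.99). The sequence of that probe, on hg19 chr10:60147960-60148019 on the plus strand, is shown as the stretch of TFAM that was read.

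TFAM probe: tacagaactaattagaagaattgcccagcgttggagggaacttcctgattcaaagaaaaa

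TFB2M was called lower in both lines as well. It melts the mtDNA promoter together with POLRMT, and is the partner the polymerase needs to start. Its log2 signal was 2.74 in HN4 against 1.50 in HN4/DDP, and 3.23 in HN30 against 2.08 in HN30/DDP. The resistant lines again lay below both parental lines. The difference was -1.23 ± 0.20 in HN4/DDP, 2.35-fold lower, and -1.16 ± 0.20 in HN30/DDP, 2.23-fold lower. In HN30/DDP it no longer passed the threshold under quantile normalization (-0.82), in the authors' table (-0.81), on scaling to probes well above background on all arrays (-0.90) and with the trend against brightness taken off (-0.77).

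POLRMT and TFB1M did not follow. POLRMT, the mtDNA polymerase for RNA, gave 2.73 in HN4 against 3.07 in HN4/DDP, and 3.41 in HN30 against 3.001 in HN30/DDP. Its difference was 0.34 ± 0.20 in HN4/DDP and -0.41 ± 0.20 in HN30/DDP. TFB1M, a paralogue of TFB2M that methylates mitochondrial ribosomal RNA, gave 2.57, 2.74, 2.96 and 2.66 in the same order. Its difference was 0.17 ± 0.20 in HN4/DDP and -0.30 ± 0.20 in HN30/DDP. None of these 4 differences passed the threshold, and those in HN30/DDP were 0.02 for POLRMT and 0.10 for TFB1M with the brightness trend taken off.

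The promoters of these 4 genes are printed below, since NRF1 and GABPA are known to act on such promoters. Each is the 250 bases upstream of the RefSeq start (GRCh38.p14), read 5′ to 3′ on the strand of the gene. TFAM lies on chr10:58385160-58385409 (plus), TFB1M on chr6:155314485-155314734 (minus), TFB2M on chr1:246566262-246566511 (minus) and POLRMT on chr19:633538-633787 (minus). Capitals mark an NRF1 core (CGCANGCG) or an ETS core (CGGAAG), the motif of GABPA, on either strand.

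TFAM: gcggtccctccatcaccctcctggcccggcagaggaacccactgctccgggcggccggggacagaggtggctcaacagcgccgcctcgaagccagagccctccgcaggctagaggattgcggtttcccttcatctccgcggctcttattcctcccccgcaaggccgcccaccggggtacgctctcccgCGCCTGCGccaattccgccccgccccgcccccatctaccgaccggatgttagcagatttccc
TFB1M: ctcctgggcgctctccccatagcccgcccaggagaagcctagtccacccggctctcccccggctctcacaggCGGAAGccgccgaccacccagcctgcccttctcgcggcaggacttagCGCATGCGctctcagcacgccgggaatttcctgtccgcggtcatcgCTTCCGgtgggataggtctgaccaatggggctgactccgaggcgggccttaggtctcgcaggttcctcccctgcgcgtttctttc
TFB2M: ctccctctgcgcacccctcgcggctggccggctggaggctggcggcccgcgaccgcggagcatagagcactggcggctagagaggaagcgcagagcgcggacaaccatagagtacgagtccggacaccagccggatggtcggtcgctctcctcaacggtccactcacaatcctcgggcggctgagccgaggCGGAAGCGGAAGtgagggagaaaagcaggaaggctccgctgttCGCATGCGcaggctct
POLRMT: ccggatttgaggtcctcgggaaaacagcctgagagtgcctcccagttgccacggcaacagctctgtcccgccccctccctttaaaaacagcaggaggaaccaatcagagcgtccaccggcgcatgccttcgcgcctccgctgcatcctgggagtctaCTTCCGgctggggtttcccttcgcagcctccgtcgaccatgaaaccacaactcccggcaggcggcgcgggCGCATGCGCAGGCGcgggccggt

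Promoters were read for 8 of the 10 members, and none was found for NRF1. Chromosome 8, which holds TOP1MT, was left out of the search and of the windows counted below, so the TOP1MT promoter was not searched. These 2 cores were shortened after the members' promoters had been read, so their counts describe the printed letters and carry no weight. The longer forms searched were the NRF1 core flanked by G and C, in 3 of the 8 members (TFAM, TFB1M and POLRMT) and 5.08% of 35093 promoter windows of the same length, and CCGGAAG for ETS, in 3 (TFB1M, POLRMT and GABPA) and 8.52% of windows. With the shortened letters TFB2M was added to both, making 4 members each, against 8.70% and 16.5% of windows. In POLRMT 2 NRF1 matches overlap. The half-site TGACG, the core of the motif that CREB-family factors such as CREB5 bind, was in 1 of these 8 members, PPARGC1A, starting at base -119 from the start, and in 21.2% of windows, and the full site TGACGTCA was in none and in 1.65% of windows.

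Of the nuclear regulators, the coactivator PPARGC1A was barely detected. It drives mitochondrial biogenesis in muscle, brown fat and liver. Its log2 signal was -6.51 in HN4 against -5.14 in HN4/DDP, and -6.91 in HN30 against -3.61 in HN30/DDP, and only the last was well above background. PPARGC1A was therefore at least 2.03-fold higher in HN30/DDP than in HN30, and no fold can be given for HN4/DDP. With normexp background correction, which models the background of each array and here adds an offset of 50, the difference in HN30/DDP was 0.46. The processed signals, 3.69 in HN30 and 39.4 in HN30/DDP, are below that offset, which by itself makes such a difference smaller.

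PPARGC1B, a related coactivator, was lower in both resistant lines without passing the threshold as scaled here. Its brighter probe gave 0.22 in HN4 against -0.29 in HN4/DDP, and 0.58 in HN30 against -0.40 in HN30/DDP, so that both resistant values were below both parental ones. The differences were -0.51 ± 0.20 and -0.98 ± 0.20, and the second probe gave -0.36 ± 0.20 and -0.55 ± 0.20. In HN30/DDP the brighter probe passed the threshold under median scaling (-1.40), with the percentile over averaged probes (-1.12) and under quantile normalization (-1.01), where it took the place of TFB2M among the members called. PPRC1, the third member of the family, gave 3.40, 3.41, 3.86 and 2.96 in the order HN4, HN4/DDP, HN30 and HN30/DDP. It was level in the HN4 pair (0.01 ± 0.20) and lower in the HN30 pair (-0.90 ± 0.20). The latter was -0.46 with the brightness trend taken off and -0.49 under quantile normalization, and passed the threshold under median scaling (-1.32) and with the percentile over averaged probes (-1.04).

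NRF1 was called lower in HN30/DDP only. It activates genes of the respiratory chain and of mtDNA transcription. Its log2 signal was -1.95 in HN4 against -2.25 in HN4/DDP, and -1.59 in HN30 against -2.87 in HN30/DDP. The difference was -0.30 ± 0.21 in HN4/DDP and -1.28 ± 0.22 in HN30/DDP, a 2.42-fold lower signal, and the latter was -0.83 with normexp. Whether the lines differ in it was not tested. GABPA, the ETS subunit of nuclear respiratory factor GABP, gave 1.24, 0.85, 1.29 and 0.97, with differences of -0.39 ± 0.20 and -0.32 ± 0.20.

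**Figure D2:**
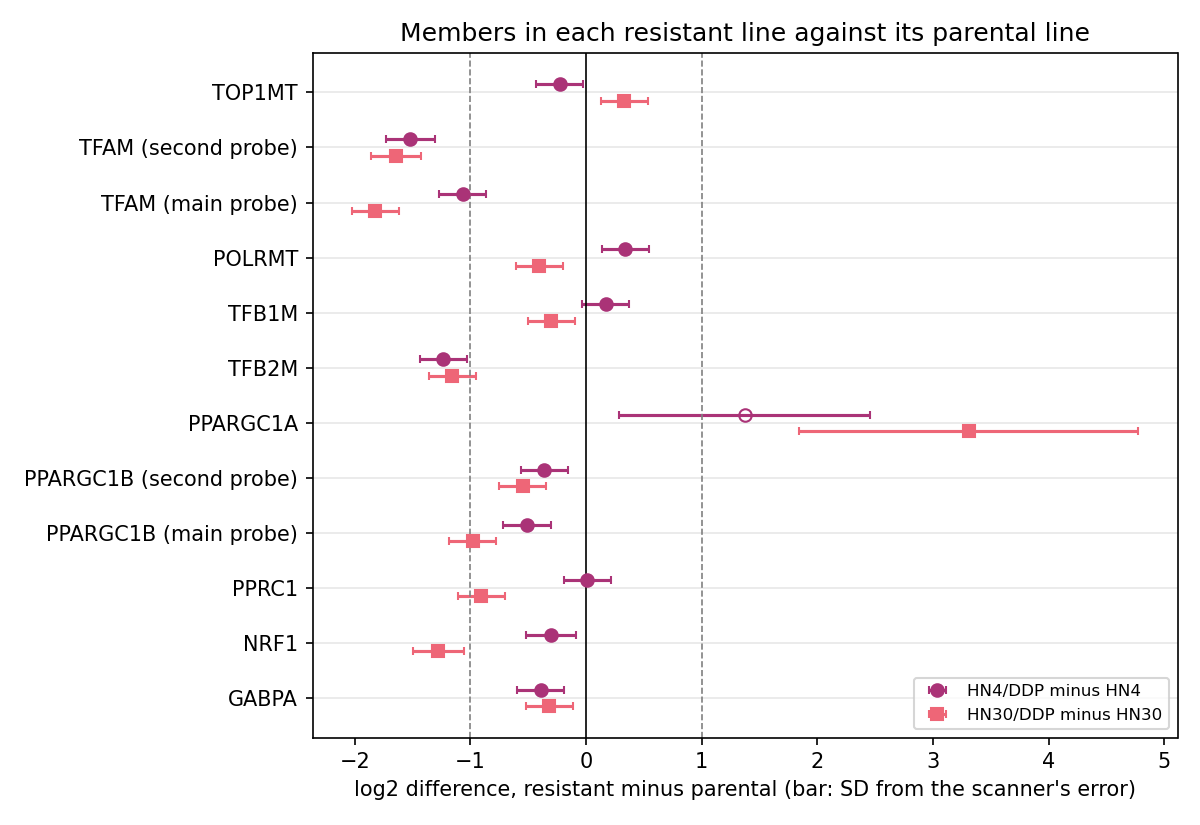
Log2 difference of each probe, resistant minus parental, in HN4/DDP (circles) and HN30/DDP (squares). Bars are the SD from the scanner's error, dashed lines mark a log2 difference of 1 in either direction, and an open symbol means that neither array was well above background. TFAM and TFB2M lie past the dashed line in both lines, and TOP1MT lies near 0 in both.

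In all, 2 of 10 members were called lower in HN4/DDP (TFAM and TFB2M), where 5.36% of all genes were, and 0 were called higher, against 5.77% of all genes. In HN30/DDP 3 were called lower (TFAM, TFB2M and NRF1), against 8.67% of all genes, and 1 higher (PPARGC1A), against 12.9%. These shares are over all 43305 gene names, dim ones included. Among 22149 genes well above background on all arrays, 11.4% had a lower difference than TFB2M (-1.16) in the HN30 pair and 14.9% than PPARGC1B (-0.98). The share lower by more than 1 lies between these values and above 8.67%. At a log2 threshold of 2 no member was lower, against 1.8% of all genes in HN30/DDP and 1.36% in HN4/DDP, and none was higher in HN4/DDP, against 2.24%. In HN30/DDP, where 5.48% of all genes were higher, the measured difference of PPARGC1A (3.31) exceeds 2, but it is taken against a signal not well above background, and its bound of 2.03-fold does not reach that threshold. The median difference of the members was -0.26 in HN4/DDP and -0.65 in HN30/DDP, beside -0.09 and 0.05 over all genes that stood well above background on some array.

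Bright genes as a whole were lower in HN30/DDP, and most members are bright. Among 22149 genes well above background on all arrays, split into 10 equal bins from dim to bright, the median difference in HN30/DDP was 0.21 in bin 3, -0.49 in bin 9 and -0.46 in bin 10. In HN4/DDP it was between -0.18 and -0.04 in every bin. TFAM, POLRMT and PPRC1 were in bin 9 and TOP1MT in bin 10. Set against those 22149 genes, 5.91% had a lower difference than TFAM in the HN4 pair and 3.49% in the HN30 pair. For TFB2M the shares were 4.33% and 11.4%.

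**Figure D3:**
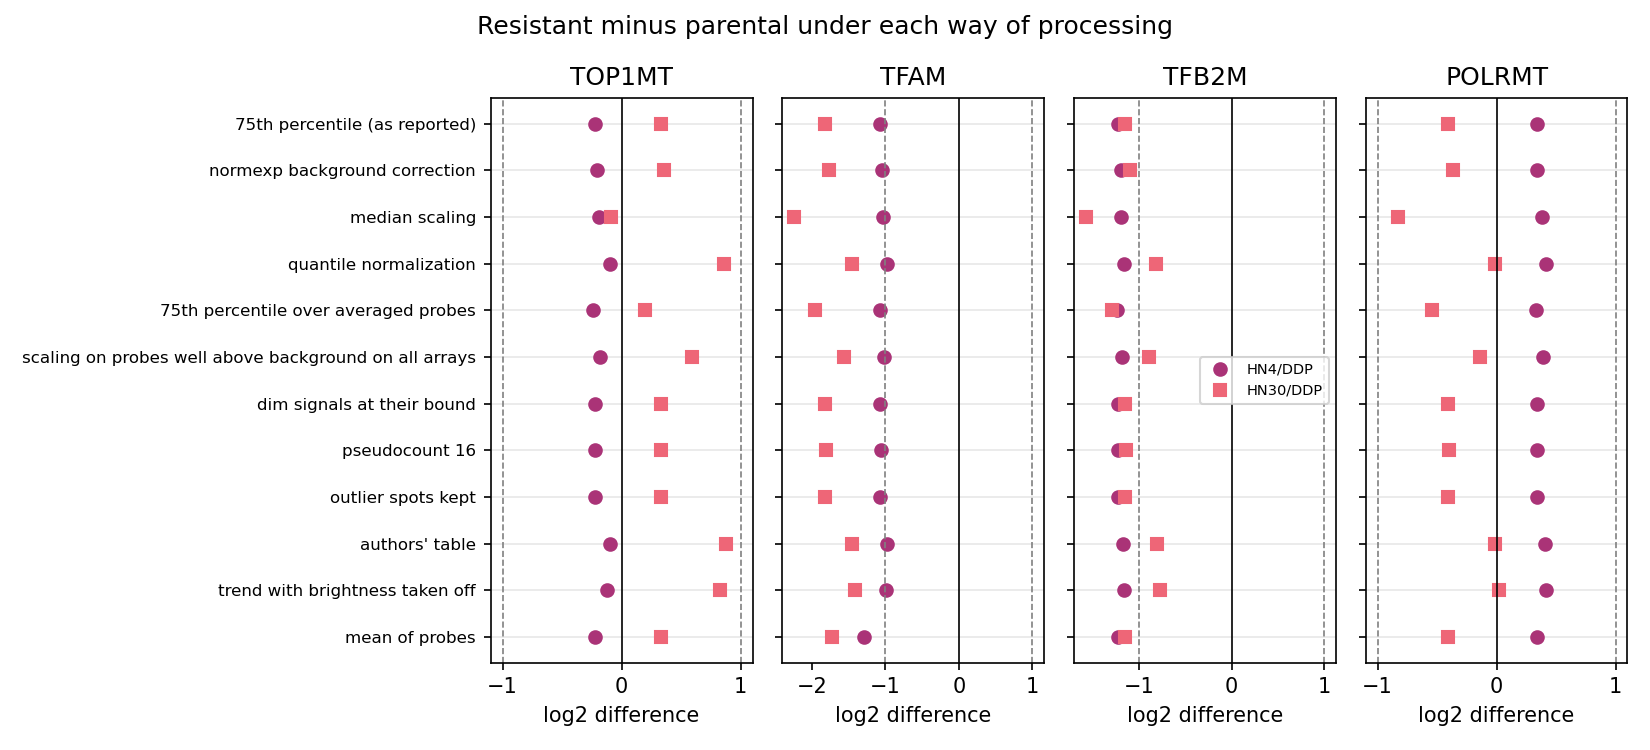
Log2 difference of TOP1MT, TFAM, TFB2M and POLRMT under the reported scaling and 11 other ways of processing, for HN4/DDP (circles) and HN30/DDP (squares), with dashed lines at a difference of 1 in either direction. The circles of TFAM lie between -1.29 and -0.97 and those of TOP1MT between -0.24 and -0.10, while the squares move together from the lowest values under median scaling to the highest under quantile normalization, the authors' table and removal of the brightness trend.

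The only replicated comparison was resistant against parental over the 2 lines, fitted with limma with a term for the line, where each gene has 1 residual degree of freedom. No gene of 29521 passed the Benjamini-Hochberg adjusted threshold of 0.05, while 2537, or 8.59%, had an unadjusted limma p under 0.05. Of the members, 2 were among the latter. TFAM differed by -1.44 ± 0.43 (SE, limma adjusted p = 0.517) and TFB2M by -1.20 ± 0.40 (limma adjusted p = 0.548), each lower in 2 of 2 lines. TOP1MT differed by 0.05 ± 0.36 (limma adjusted p = 0.979), and POLRMT and TFB1M by -0.03 ± 0.42 and -0.06 ± 0.41. With so few arrays, a count of 0 does not show that no gene changed.

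Between the parental lines 0 members passed the threshold, and with 1 array each nothing was tested. HN30 gave the higher value for 9 of 10 members, all but PPARGC1A, and for 55.0% of genes well above background on all arrays. The difference of members was larger than its scanner SD, which covers reading error only, for 7, and no such share was computed over all genes. For these 9 it ran from 0.04 for GABPA to 0.67 for POLRMT on the log2 scale, with 0.07 for TOP1MT and 0.39 for the brighter TFAM probe. It was -0.41 for PPARGC1A, which was dim on both arrays. The median was 0.37 over all 10 members and 0.05 over all genes well above background on all arrays. For POLRMT the 2 resistant lines differed by -0.07.

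The pattern most like that of TOP1MT was sought among the 22149 genes well above background on all 4 arrays, by the distance between mean-centred log2 values over the 4 arrays. The only 1 of the nearest 5 with a gene symbol was RHBDD2, a rhomboid-domain membrane protein, at a distance of 0.04, with differences of -0.21 and 0.35.

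Other genes of the pathway were read from 4 lists. The shares of all genes set beside them count dim gene names too. Among the 22149 genes well above background on all arrays, between 11.4% and 14.9% were lower in HN30/DDP by more than 1. The first list held factors that copy, package, process or degrade mtDNA and its RNA, of which 37 of 38 were measured, all well above background on every array. In HN30/DDP 20 of 37 were called lower and 1 higher, against 8.67% and 12.9% of all genes, with a median of -1.05. The number lower was 12 with the brightness trend taken off and 30 under median scaling. In HN4/DDP 1 was lower and 1 higher, against 5.36% and 5.77% of all genes, with a median of -0.05. SSBP1, the single-stranded DNA binding protein of mtDNA replication, gave 5.25 in HN4 against 5.17 in HN4/DDP, and 5.96 in HN30 against 3.28 in HN30/DDP, or -0.07 ± 0.20 and -2.68 ± 0.20. Whether the lines differ in it was not tested. ATAD3B, a membrane ATPase tied to the nucleoid, likewise differed by -2.15 in HN30/DDP and -0.20 in HN4/DDP. MTERF4, which helps assemble the mitochondrial ribosome, was lower in both lines, by -1.61 in HN4/DDP and -1.21 in HN30/DDP. MTERF1, which binds the end of the ribosomal RNA genes of mtDNA, differed by -0.77 and -1.49. RRM2B went the other way. This p53-regulated subunit of ribonucleotide reductase supplies nucleotides for mtDNA, and it was higher by 1.19 in HN4/DDP and 1.95 in HN30/DDP. The median of the list in HN30/DDP was -0.83 with the brightness trend taken off.

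The next list held transcripts of mtDNA itself. Of 15 listed, 10 were measured, and nuclear copies of mtDNA can share such probes. In HN30/DDP 6 of 10 were called lower, against 8.67% of all genes, with a median of -1.12. Under quantile normalization, in the authors' table and with the brightness trend taken off 3 were lower and 1 higher, and without that trend the median was -0.69. In HN4/DDP 0 were called, against 5.36% of all genes lower and 5.77% higher, with a median of -0.40 and 9 of 10 below 0. MT-CYB, the cytochrome b of complex III, gave 8.69 in HN4 against 7.72 in HN4/DDP, and 8.75 in HN30 against 6.67 in HN30/DDP, or -0.96 and -2.08. MT-ND6, the transcript of the light strand, differed by -0.61 and -2.01. MT-CO2 differed by -0.90 and -0.98, and MT-ND3 by -0.76 and -1.02. The exceptions were MT-ND1, at -0.15 and 0.54, and MT-ND5, at 0.14 and 0.10.

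Of 16 genes known as targets of NRF1 or GABPA, 5 were called lower in HN30/DDP and 0 higher, against 8.67% and 12.9% of all genes, with a median of -0.81. In the authors' table and under quantile normalization 2 were lower and 1 higher, with medians of -0.39. Without the brightness trend 3 were lower and 1 higher, and under median scaling 11 were lower, with a median of -1.23. In HN4/DDP 0 were called, against 5.36% of all genes lower and 5.77% higher, with a median of 0.06. Cytochrome c, CYCS, gave 5.82 in HN4 against 4.86 in HN4/DDP, and 6.50 in HN30 against 4.34 in HN30/DDP, or -0.97 and -2.16. ATP5MC1, a subunit of the ATP synthase ring, was level in HN4/DDP (0.11) and -2.16 in HN30/DDP. TSFM, a mitochondrial translation factor, differed by -0.60 and -1.08, and ALAS1, the first enzyme of haem synthesis, by 0.51 and 0.50.

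The last list held partners and upstream regulators of the nuclear factors. Of 27 genes measured, 3 were called lower in HN4/DDP and 0 higher, against 5.36% and 5.77% of all genes. In HN30/DDP 5 were lower and 3 higher, against 8.67% and 12.9%. Among genes well above background on all arrays, as 25 of the 27 were, between 11.4% and 14.9% were lower in HN30/DDP by more than 1. The 3 higher were 1 under normexp, median scaling and the percentile over averaged probes, while the 5 lower were 8 under median scaling. The medians were -0.10 and -0.31. CREB1, a CREB-family activator of the PPARGC1A gene, differed by -0.90 and -1.15, and HCFC1, a coactivator partner of GABP, by -0.76 and -1.27. PERM1, a muscle regulator of the PGC-1 pathway, was higher by 0.72 and 1.1. BDNF, a neurotrophin, gave 0.12 in HN4 against -2.17 in HN4/DDP, and -0.28 in HN30 against 0.62 in HN30/DDP, opposite in the 2 lines (-2.30 and 0.90). The median of this list in HN30/DDP changed sign under 3 of 11 alternatives, the brightness trend taken off (0.08), quantile normalization (0.0077) and the authors' table (0.0070).

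**Figure D4:**
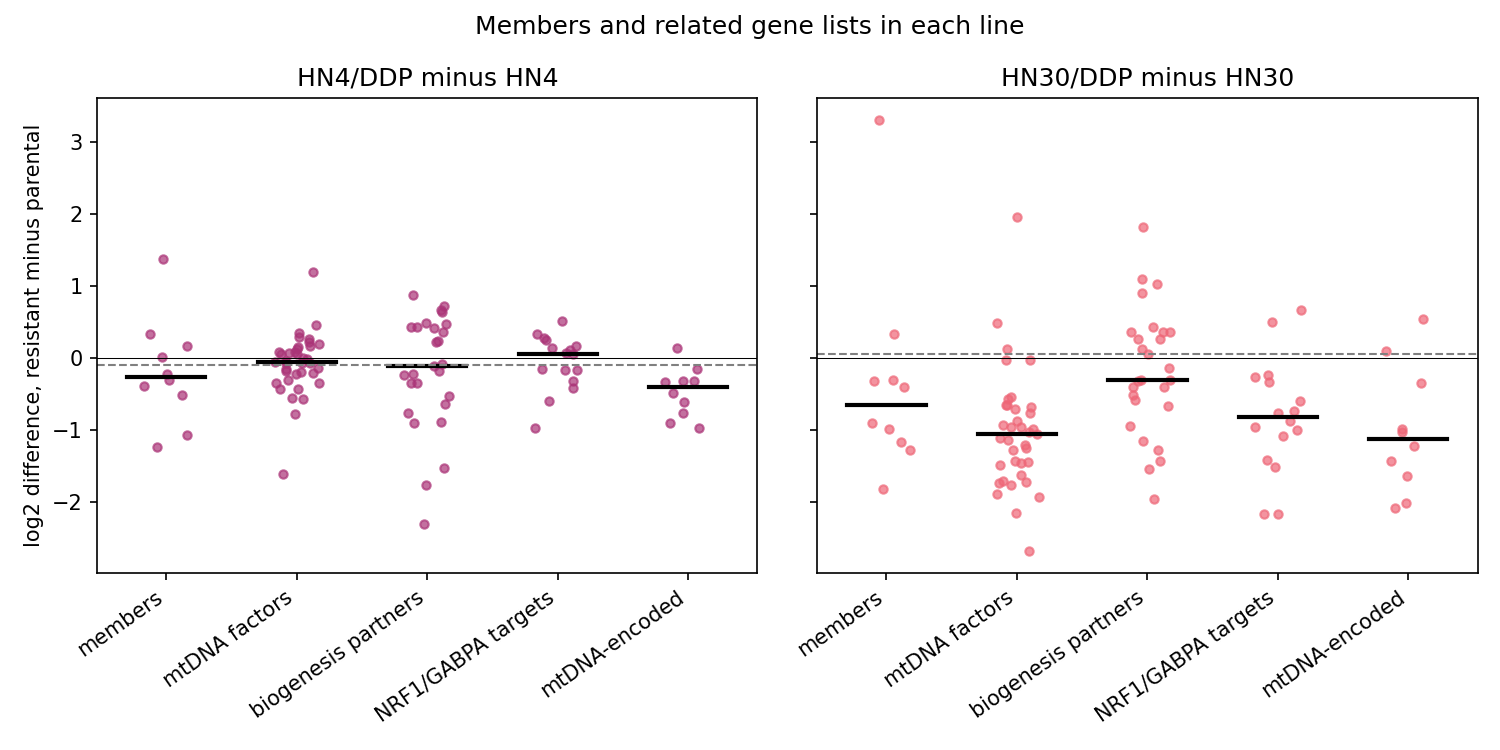
Log2 difference, resistant minus parental, of each gene in the 10 members and the 4 related lists, in HN4/DDP (left) and HN30/DDP (right). Points are genes, black bars are medians, and the dashed line is the median over all genes that stood well above background on some array. In HN30/DDP the bars of the mtDNA factors (-1.05) and of the mtDNA-encoded transcripts (-1.12) lie lowest.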

How the data were processed

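Expression was measured on 4 one-colour Agilent arrays, 1 per condition, all on 1 slide and scanned on 1 day. The authors deposited the scanner output with a processed intensity per spot, made with Agilent Feature Extraction 10.7.1.1 per the submitters' processing notes, which subtracted the background and set flags for outliers and for spots well above background. The authors further deposited log2 values, an alternative here, whose quantiles are identical on the HN4 and HN30/DDP arrays, the pair compared. The sources used here do not name their normalization. Of the 60901 spots that are not controls, between 55.3% and 63.6% per array were well above background. Precision is limited by having 4 arrays.

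From the deposited intensity, log2 was taken and the 75th percentile over these spots subtracted. Outlier spots were left out, spots of a probe averaged, and a gene represented by its brightest probe of 58201. Scanner SDs came from the deposited error per spot. All 12 member probes matched the same symbol in RefSeq. The replicated contrast used limma 3.58.1 in R 4.3.3 with a trend, and the rest Python 3.11.15, pandas 2.3.3 and statsmodels 0.14.6. The fit was also run on simulated data in which all genes shared 1 spread, which does not show how it performs on these arrays. The labels name no separate cultures, so p-values measure no spread between cultures of a line. With the line as a term, they rest on how far the change differs between the 2 lines. That spread is moderated by one estimated over all genes, with 3.4 prior degrees of freedom.

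Members and gene lists were chosen with earlier results of these data known. Named genes are the members, CREB5, list genes past a log2 difference of 2, the 3 largest shared differences per list, and the 5 nearest to TOP1MT. MT-ND1, MT-ND5 and the marker genes were named after their values were seen. Alternatives were normexp (offset 50), median and quantile scaling, scaling on bright probes, a lowess trend (fraction 0.3) taken off, the authors' table, a pseudocount of 16, dim signals at their bound, mean of probes, outlier spots kept and, added after seeing the data, the percentile over averaged probes. Motif letters for the NRF1 and ETS cores were shortened after the promoters were read.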

Additional observations from a re-analysis of the deposited data

Results flagged for a closer look

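Of the genes described, 11 had differences of opposite sign in the 2 lines, each on 1 array per condition, and the differences between the lines were not tested. The change in HN30/DDP minus that in HN4/DDP (log2) was 0.56 for TOP1MT, -0.75 for POLRMT, -0.47 for TFB1M, -0.92 for PPRC1, 3.20 for BDNF, -2.27 for ATP5MC1, 0.69 for MT-ND1 and 0.64 for PDGFRB. It was 0.55 for RHBDD2, which was picked for its likeness to TOP1MT. With signals that were not well above background set at the lowest such signal of the array, it was -10.8 for KRT6A and 1.75 for PECAM1. For TFB1M, PPRC1, ATP5MC1, MT-ND1 and PDGFRB the change in HN4/DDP was within the scanner SD of 0 (0.17, 0.01, 0.11, -0.15 and -0.01). For TOP1MT the sign in HN30/DDP turned under median scaling (-0.09), for POLRMT it turned with the brightness trend taken off (0.02), and for TFB1M it turned in that setting (0.10), under quantile normalization and in the authors' table (both 0.06). For PPRC1 the sign in HN4/DDP turned under normexp (-0.0085).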

How the results depend on the processing

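Among 220 member differences under 11 alternatives, 173 moved by less than the scanner SD, 47 moved further, and 0 of those called higher or lower changed sign. PPARGC1A in HN4/DDP, dim on both arrays and so not called, went from 1.37 to -0.23 with dim signals at their bound. Members lower in HN4/DDP, 2 as reported, were 1 under quantile normalization, in the authors' table and with the brightness trend taken off, and 0 at a threshold of 2. Members lower in HN30/DDP, 3 as reported, were 5 under median scaling and with the percentile over averaged probes, 2 under normexp, in the authors' table, on probes well above background on all arrays and without the brightness trend, and 0 at a threshold of 2. The single member higher in HN30/DDP was lost (0) under normexp and when both arrays had to be well above background. The members' median in HN30/DDP, -0.65, was -1.07 under median scaling, -0.33 under quantile normalization and in the authors' table, -0.39 on probes well above background on all arrays and -0.27 without the brightness trend. Median scaling also moved the median of all genes in HN30/DDP from 0.05 to -0.37, so 0.42 of its shift is common to all genes. The limma count of 0 genes held under all 6 alternatives, with 2169 to 3261 genes at an unadjusted p under 0.05. Leaving out either line leaves the other line's difference, a value with no test: -1.82 without HN4 and -1.07 without HN30 for TFAM. Genes called over all genes in HN30/DDP went from 3756 lower to 6769 under median scaling. No paired analysis was possible because every condition was hybridised once and carries replicate number 1 alone, other than by cell line, which the limma fit already holds as a term. Without that term 0 genes passed as well.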
